A study of Mus musculus with 13 samples.

Results

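Wnt signalling was followed through 10 mouse genes of 38377 gene identifiers counted in 13 RNA sequencing libraries. The genes were matched by symbol and cover Wnt secretion (Porcn and Wls), the TCF/LEF transcription factors (Tcf7, Tcf7l1, Tcf7l2 and Lef1), and genes that feed back on the pathway or read it out (Axin2, Sp5, Nkd1 and Dkk1). They were selected on the measured levels of Porcn and Tcf7l1, which differed between groups of extraembryonic endoderm (XEN) cells. For that reason the values of all 10 genes within XEN cells are described without a test. Tests are given for the comparisons that the choice did not use.

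All cells were female. XEN lines, which represent the extraembryonic endoderm of the early embryo, were kept in DMEM and FBS. There were 2 untreated wild-type libraries, 2 of the wild type given 5-aza-2'-deoxycytidine (Aza) at 20 uM, 3 of cells with a paternal Xist deletion (dXist) and 2 of such cells given Aza. Epiblast stem cells (EpiSC), which represent the epiblast after implantation, were kept on matrigel with FGF2 and Activin and were wild type (2 libraries) or carried a heterozygous Xist deletion (also written dXist here, 2 libraries). Xist is the RNA that silences an X chromosome in female cells, and Aza inhibits DNA methylation. The labels give neither the duration of treatment nor whether libraries of a group came from separate clones or cultures, so the p-values measure the spread between these libraries, which may be technical.

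Wnt proteins are lipid-modified in the endoplasmic reticulum by the acyltransferase Porcn and carried to the cell surface by Wls. Binding to Frizzled and LRP receptors stabilises beta-catenin, which joins TCF/LEF factors on DNA. These factors repress their targets without beta-catenin, and Tcf7l1 is known mainly as a repressor in pluripotent cells. Axin2 and Sp5 are common transcriptional targets of the pathway, and Axin2, Nkd1 and Dkk1 also restrain it, as a scaffold of beta-catenin destruction, a Dishevelled-binding protein and a secreted LRP antagonist. In EpiSC, Wnt signals are known to favour primitive streak fates.

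Total counts ran from 5848454 to 35247432 per library, and levels are given as CPM after TMM scaling. At 3 counts a library reached 0.0840 to 0.495 CPM, which is the level below which absence is not detectable. Untailed RNAs and histone messages took 11.5% to 14.4% of counts in 4 libraries, called total-like here, and 0.0226% to 0.287% in the other 9, called polyA-like. The total-like libraries were both treated wild-type XEN libraries and library 2 of each EpiSC genotype. In XEN cells treatment of the wild type and library type therefore cannot be told apart. Xist stood at 1560 and 1701 CPM in wild-type XEN, 1614 and 1185 in treated wild type, 2.36, 1.21 and 5.02 in dXist, 835 and 197 in wild-type EpiSC and 0.448 and 0.261 CPM in dXist EpiSC. In treated dXist XEN it stood at 13.3 and 233 CPM, so the second library labelled treated dXist stands apart. Log2 changes without it are given for Porcn, Wls, Axin2 and Dkk1. A list of 7 XEN markers summed to 4209 to 4971 CPM in wild-type, 4578 to 5604 in dXist, 2282 to 2414 in treated wild-type and 3045 to 3749 CPM in treated dXist XEN libraries, with all 7 above 1 CPM in each. A list of 7 EpiSC markers summed to 625 to 701 CPM in wild-type and 729 to 1106 CPM in dXist EpiSC, again with all 7 above 1 CPM.

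The promoters of the target genes Sp5 and Axin2 are printed below. They were searched for a sequence that TCF/LEF factors recognise, and their CpG, on which DNA methylation acts, was counted. They are RefSeq windows on GRCm38.p6, from 250 bases before to 50 bases after the annotated start. Capitals mark the TCF/LEF core CTTTGAT, which was searched on both strands (its reverse complement is ATCAAAG).
Sp5, chr2:70474673-70474972, plus strand: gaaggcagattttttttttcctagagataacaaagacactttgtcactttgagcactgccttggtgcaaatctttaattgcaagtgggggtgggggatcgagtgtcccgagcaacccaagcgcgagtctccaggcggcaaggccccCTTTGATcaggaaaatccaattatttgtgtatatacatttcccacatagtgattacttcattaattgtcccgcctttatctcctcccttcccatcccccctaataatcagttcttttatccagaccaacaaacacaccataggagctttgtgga
Axin2, chr11:108920099-108920398, plus strand: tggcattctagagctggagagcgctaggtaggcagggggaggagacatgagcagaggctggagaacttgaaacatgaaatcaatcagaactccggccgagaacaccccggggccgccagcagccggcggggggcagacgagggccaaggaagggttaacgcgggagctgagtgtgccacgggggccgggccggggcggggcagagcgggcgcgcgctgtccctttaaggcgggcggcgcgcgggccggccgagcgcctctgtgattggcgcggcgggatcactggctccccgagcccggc
A window was found for 9 of the 10 genes, 14 windows in all. This exact sequence was in the Sp5 window alone, with its first base 104 bases upstream of the start, and in 3.73% of all 32851 windows. Variants of it were not searched, so other sites in these windows are not excluded. The Sp5 window held 6 CpG dinucleotides and the Axin2 window 31, against a median of 7 over all windows. The richest windows of Tcf7, Tcf7l1 and Tcf7l2 held 45, 34 and 34, that of Lef1 21, and those of Wls, Dkk1 and Nkd1 11, 9 and 6. The other windows of Tcf7, Tcf7l2 and Lef1 held fewer. Counted by window, at least 20 CpG were found in 5 of the 14 and in 26.5% of all windows.

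The secretion genes differed in where they stood high. Porcn (X, 8193848 to 8206525 on GRCm38, minus strand) was at 22.1 and 20.6 CPM in wild-type XEN, at 54.9 and 58.6 CPM after treatment, at 16.4, 5.23 and 8.45 CPM in dXist, and at 4.87 and 7.81 CPM in treated dXist. Wild-type EpiSC held 2.66 and 4.35 CPM, and dXist EpiSC 3.95 and 4.70 CPM. The order thus ran from treated over untreated wild-type XEN to dXist XEN; dXist overlapped treated dXist, and the EpiSC genotypes overlapped each other at the bottom. Wls (3, 159839672 to 159938664, plus strand) was at 51.0 and 61.2 CPM in wild-type XEN, at 180, 202 and 69.6 CPM in dXist, at 60.3 and 62.9 CPM in treated wild type and at 70.6 and 137 CPM in treated dXist. It was at 198 and 145 CPM in wild-type EpiSC and at 125 and 87.9 CPM in dXist EpiSC. The carrier was therefore lowest in wild-type XEN libraries, treated or not, and every other library lay above them.

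The TCF/LEF factors were compared with each other per kilobase of exon (RPKM). Wild-type XEN held mean levels (± SD) of 44.9 ± 3.70 for Tcf7l2, 39.4 ± 14.3 for Tcf7l1, 6.21 ± 2.59 for Tcf7 and 0.0115 ± 0.0163 for Lef1. Wild-type EpiSC held mean levels of 25.0 ± 24.6 RPKM for Tcf7l1, 23.1 ± 9.84 for Tcf7, 7.52 ± 1.62 for Lef1 and 3.99 ± 2.94 for Tcf7l2. The order of the means was not the same in every group. By mean, Tcf7l1 stood above Tcf7l2 in dXist XEN (33.7 ± 5.29 against 28.1 ± 6.39 RPKM) and in treated dXist XEN (26.3 ± 2.15 against 23.8 ± 0.727 RPKM). Tcf7 stood above Tcf7l1 in dXist EpiSC (30.6 ± 9.74 against 14.1 ± 9.52 RPKM). In wild-type XEN, dXist XEN and wild-type EpiSC an SD exceeded the gap between the highest means, so their order is not settled.

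Tcf7l1 (6, 72626378 to 72789254, minus strand) was at 115 and 194 CPM in wild-type XEN, 142, 146 and 108 in dXist, 37.4 and 27.2 in treated wild type, and 109 and 97.1 CPM in treated dXist. Wild-type EpiSC held 166 and 29.6 CPM, and dXist EpiSC 81.7 and 28.8 CPM. The 4 total-like libraries, of either cell type and any genotype, lay between 27.2 and 37.4 CPM, and the 9 polyA-like libraries between 81.7 and 194 CPM. Ordered by mean, the groups ran from wild-type XEN through dXist XEN, treated dXist XEN, wild-type EpiSC and dXist EpiSC to treated wild-type XEN, and each neighbouring pair overlapped. On the opposite strand 3 annotated genes overlap Tcf7l1, and 1 each overlaps Wls, Tcf7, Lef1 and Axin2; without strand information their reads cannot be told apart.

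Tcf7l2 (19, 55741820 to 55933654, plus strand) was at 417 and 371 CPM in wild-type XEN, 197, 235 and 307 in dXist, 152 and 126 in treated wild type, and 213 and 204 CPM in treated dXist. Wild-type EpiSC held 53.3 and 16.8 CPM, and dXist EpiSC 33.2 and 20.4 CPM. All XEN libraries stood above all EpiSC libraries, and within each cell type the total-like libraries were lowest. Tcf7 (11, 52252371 to 52283014, minus strand) was at 11.5 and 21.1 CPM in wild-type XEN, 3.49, 6.05 and 0.285 in dXist, 13.5 and 10.1 in treated wild type and 17.1 and 10.6 CPM in treated dXist. It reached 78.9 and 42.4 CPM in wild-type EpiSC and 98.4 and 62.2 CPM in dXist EpiSC. Its dXist XEN libraries were the lowest of all, and the EpiSC libraries the highest. Lef1 (3, 131110471 to 131224356, plus strand) was at 76.2 and 56.0 CPM in wild-type and 26.0 and 26.4 CPM in dXist EpiSC. In the 9 XEN libraries it held 0 to 15 counts, at most 0.839 CPM.

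The feedback genes were mostly low. Axin2 (11, 108920349 to 108950783, plus strand) was at 8.93 and 17.1 CPM in wild-type XEN, 1.56, 6.75 and 7.41 in dXist, 2.80 and 3.15 in treated wild type and 0.727 and 1.002 CPM in treated dXist, and at 8.93 to 12.4 CPM in the 4 EpiSC libraries. Sp5 (2, 70474923 to 70477729, plus strand) had 1 count in the 9 XEN libraries together and 13, 13, 8 and 3 counts in wild-type EpiSC libraries 1 and 2 and dXist EpiSC libraries 1 and 2. Sp5 was thus near or below the 3-count level in most libraries, whereas Axin2 was read in all. Nkd1 (8, 88521354 to 88594884, plus strand) was at 0.506 and 0.410 CPM in wild-type XEN, 0.765, 1.48 and 0 in dXist and 0.105 to 0.495 CPM in the 4 treated libraries, against 4.68 and 5.79 CPM in wild-type and 2.74 and 3.09 CPM in dXist EpiSC. Dkk1 (19, 30545863 to 30549665, minus strand) was at 1.28 and 3.66 CPM in wild-type XEN, 0.166, 0.0390 and 15.8 in dXist, 7.91 and 7.45 in treated wild type and 14.7 and 2.20 CPM in treated dXist. It was at 1.30 and 1.30 CPM in wild-type EpiSC and at 0.0280 and 0.0871 CPM, 1 and 2 counts, in dXist EpiSC. The spread of Dkk1 among dXist XEN libraries was wider than between any of the group means.

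**Figure D1:**
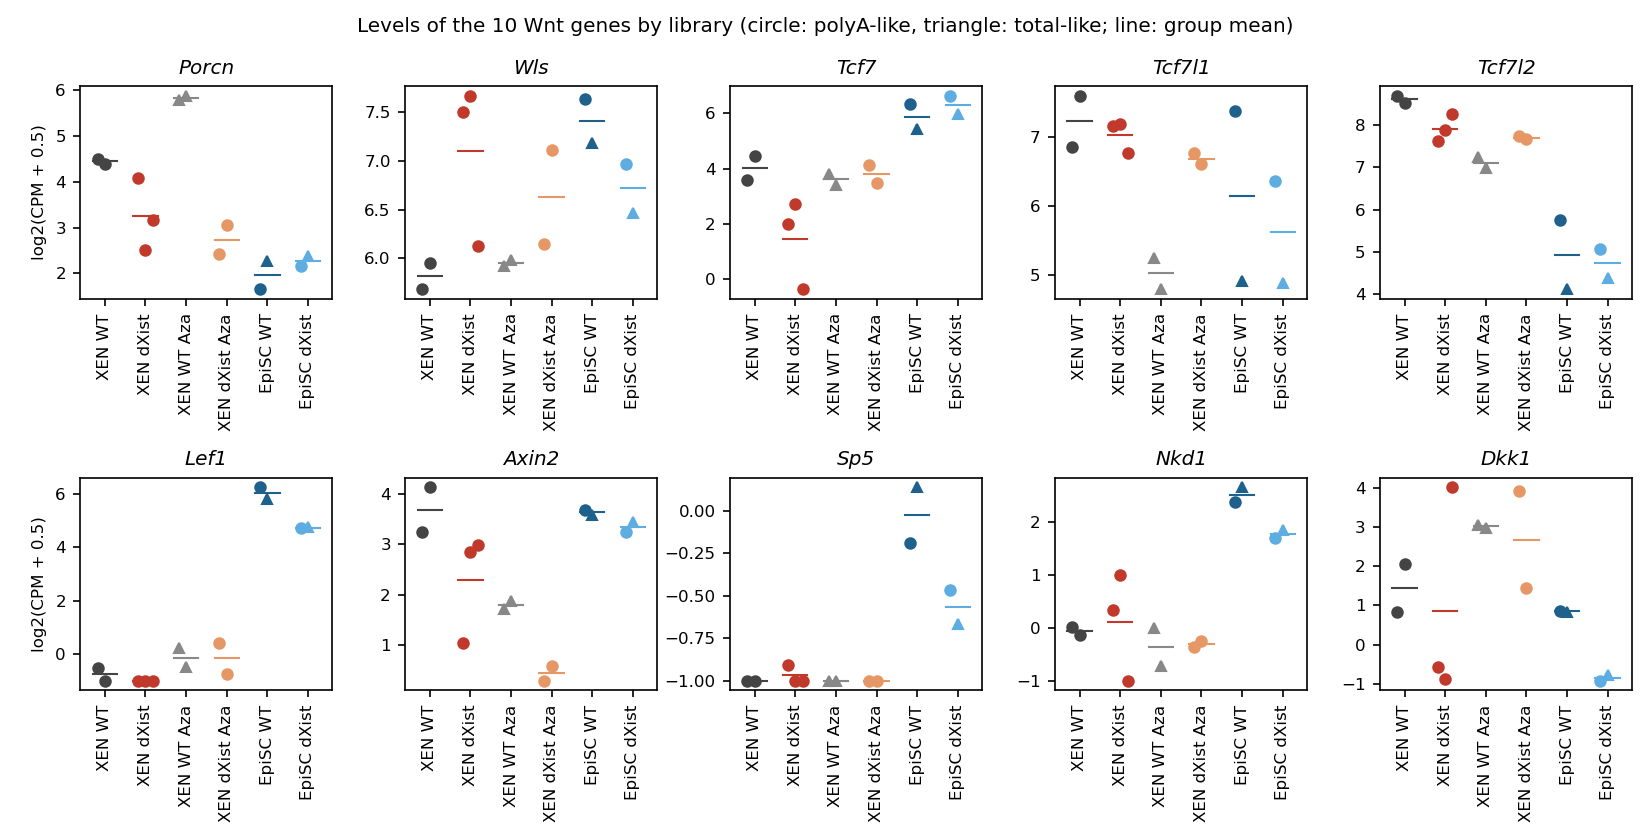
Level of each of the 10 genes as log2(CPM + 0.5), with a y axis of its own, in the 13 libraries by group; circles are polyA-like and triangles total-like libraries, and lines are group means of these log values. Lef1 and Nkd1 stand high in EpiSC, Tcf7l2 in XEN, and all triangles of Tcf7l1 lie below its circles.

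In XEN cells with the paternal Xist deletion, Porcn, Tcf7, Tcf7l2 and Axin2 stood lower and Wls stood higher than in the wild type, with no overlap between libraries. Of 9 genes that passed the low-count filter, 1 stood wholly above and 4 wholly below the wild type. Over all 18393 genes 13.9% stood wholly above and 14.6% wholly below, and nothing is read from the difference because these groups entered the choice of genes. The median log2 change of the 9 was -0.69, against 0.00 for all genes.

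Porcn was 2.13-fold lower (10.04 ± 5.77 CPM, SD, n = 3, against 21.4 ± 1.06, n = 2; log2 change -1.11, SE 0.47). Tcf7 was 4.98-fold lower (3.28 ± 2.89 against 16.3 ± 6.81 CPM; log2 change -2.32, SE 0.88, or -3.13 without dXist library 2 and -1.78 without dXist library 3) and Axin2 2.48-fold lower (log2 change -1.31, SE 0.68). Wls was 2.68-fold higher (151 ± 71.1 against 56.1 ± 7.25 CPM; log2 change 1.41, SE 0.48). The acyltransferase and its partner carrier thus stood on opposite sides. Tcf7l2 had a log2 change of -0.69 (SE 0.31) and Tcf7l1 of -0.23 (SE 0.32), the latter positive without wild-type library 2. Lef1 had 6 counts in the wild type and 0 in dXist, at least 2.82-fold lower (with 3 counts taken as the floor of the dXist group), and all 6 were in wild-type library 1. Nkd1 (log2 change 0.68, SE 1.34) turned negative without dXist library 2, and Dkk1 (1.13, SE 1.76) turned to -4.49 (SE 1.14) without dXist library 3.

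Other genes of the Wnt pathway were followed through a list of 92 ligands, receptors, turnover factors, cytoplasmic components, nuclear cofactors, antagonists and targets. Of these, 66 passed the filter in XEN and none was called in the dXist comparison (edgeR quasi-likelihood test, Benjamini-Hochberg adjusted p under 0.05), where 0.0217% of all genes were called. At an unadjusted p under 0.05 there were 12. The share of all genes under that unadjusted p is not given here or for the comparisons below. DESeq2 called 3 of the 66, against 2.75% of all genes. The gene of each class with the smallest p was the ligand Wnt7b (25.5 ± 5.25 against 88.8 ± 53.3 CPM, adjusted p = 0.310), the receptor Ror2 (2 against 61 counts, 0.318), the R-spondin Rspo3 (104 against 3 counts, 0.443), the kinase Gsk3b (0.649), the corepressor Tle4 (100 ± 45.3 against 37.7 ± 8.10 CPM, 0.357), the secreted antagonist Frzb (4.80 ± 5.05 against 58.0 ± 34.4 CPM, 0.264) and the target Myc (66.3 ± 28.4 against 37.5 ± 1.75 CPM, 0.485). The median log2 change of the 66 was -0.08.

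The X-linked position of Porcn was set beside its neighbours, since loss of Xist bears on that chromosome. Counted over 629 X-linked genes the median log2 change in dXist XEN was 0.36, and 6.36% of them had a lower value than Porcn. Of the 5 tested protein-coding genes on each side, Porcn was the only one of the 11 whose dXist and wild-type libraries did not overlap. Porcn was selected on its levels in XEN groups, so nothing is read from its place among these X-linked genes. The adjacent Ebp, which encodes a sterol isomerase, had a log2 change of 0.30, and Ftsj1, an RNA methyltransferase on the other side, of 0.06. None of the neighbours was called in any XEN comparison.

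**Figure D2:**
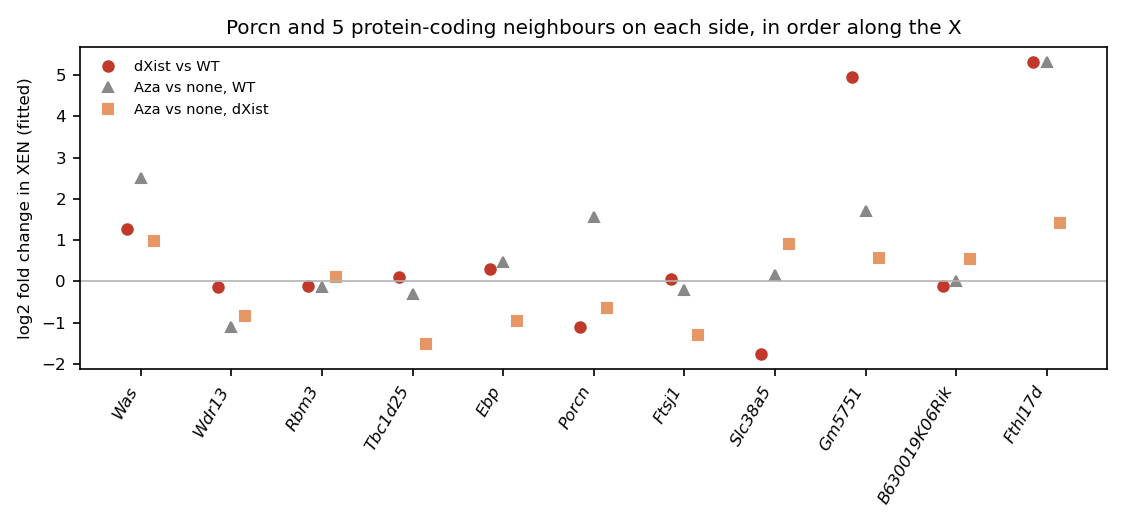
Fitted log2 change (y axis) of Porcn and the 5 nearest tested protein-coding genes on each side, in chromosome order (x axis), in the 3 XEN comparisons. In dXist XEN Porcn lies at -1.11 between Ebp at 0.30 and Ftsj1 at 0.06. The values of Was, Gm5751 and Fthl17d rest on group means under 1.1 CPM.

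After Aza treatment of wild-type XEN cells, Porcn stood higher and Tcf7l1, Tcf7l2 and Axin2 stood lower. Of 9 genes, 3 stood wholly above (Porcn, Lef1 and Dkk1) and 3 wholly below their untreated libraries, against 25.8% and 35.2% of all genes, from which nothing is read here either. Porcn was 2.66-fold higher (56.7 ± 2.59 against 21.4 ± 1.06 CPM, n = 2 each; log2 change 1.57, SE 0.53). Tcf7l1 was 4.79-fold lower (32.3 ± 7.24 against 155 ± 55.9 CPM; log2 change -2.09, SE 0.37), Tcf7l2 2.84-fold lower (139 ± 18.2 against 394 ± 32.5 CPM; -1.35, SE 0.35) and Axin2 4.37-fold lower (2.98 ± 0.245 against 13.01 ± 5.77 CPM; -1.96, SE 0.79). Dkk1 was 3.11-fold higher (log2 change 1.81, SE 1.93, or 1.24 without untreated library 1 and 2.64 without untreated library 2), and Lef1 rested on 6 counts in each group. Wls, Tcf7 and Nkd1 overlapped, with log2 changes of 0.30, -0.30 and -0.54.

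These treated libraries were the total-like ones, and the EpiSC pairs show how the same genes differed between library types without treatment. In EpiSC, Tcf7l1 was 5.62-fold higher in the polyA-like than in the total-like library of the wild type and 2.83-fold higher in dXist. For Tcf7l2 the ratios were 3.17 and 1.63. On the log2(CPM + 0.5) scale the total-like library was lower by -2.47 and -1.49 for Tcf7l1 and by -1.64 and -0.69 for Tcf7l2, against medians of -0.09 and -0.11 over 17132 genes with 5th to 95th percentiles of -1.26 to 1.36 and -0.74 to 1.19. On the same scale the differences with Aza in the wild type were -2.21 for Tcf7l1 and -1.504 for Tcf7l2. For Axin2 the differences between library types were -0.11 and 0.20 and that with Aza was -1.89, and for Porcn they were 0.62 and 0.23 and 1.39. In a fit of all 13 libraries with a library type term, which the EpiSC pairs estimate, the log2 change with Aza was -0.29 (SE 0.52) for Tcf7l1, -0.36 (SE 0.49) for Tcf7l2, 0.89 (SE 0.74) for Porcn and -2.19 (SE 0.99) for Axin2. The summed XEN markers were also lower in the treated wild-type libraries, as given above, and their part in these values was not tested.

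**Figure D3:**
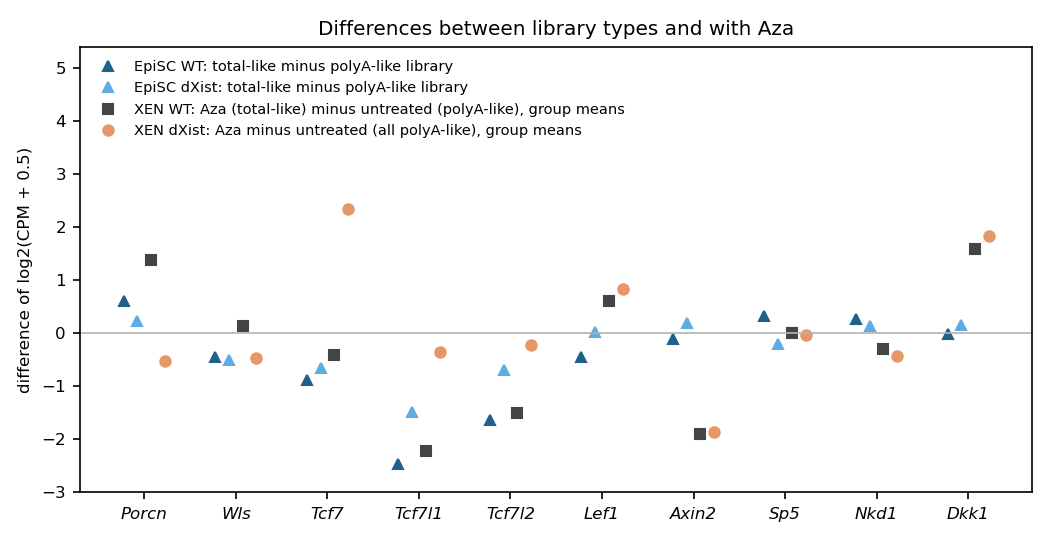
Difference in log2(CPM + 0.5) for each of the 10 genes: total-like minus polyA-like library within each EpiSC genotype (triangles), and treated minus untreated group means in wild-type (squares) and dXist XEN (circles). Tcf7l1 lies at -2.47 and -1.49 between library types and at -2.21 with Aza in the wild type; Axin2 lies near 0 between library types and at -1.89 and -1.85 with Aza.

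The wider pathway gave no call with Aza in wild-type cells: 0 of 66 list genes, against 0.582% of all genes called. At an unadjusted p under 0.05 there were 6. DESeq2 called 0 of the 66, against 3.51% of all genes. The leading genes were the ligand Wnt2b (0 against 45 counts, at least 3.95-fold lower, adjusted p = 0.307 by edgeR), Fzd9 (2 against 85 counts, 0.310), Rspo3 (9 against 3 counts, 0.502), the Dishevelled gene Dvl3 (61.4 ± 8.04 against 146 ± 72.1 CPM, 0.330), Tle4 (73.9 ± 6.29 against 37.7 ± 8.10 CPM, 0.350), the Wnt deacylase Notum (24 against 5 counts, 0.351) and Myc (18.6 ± 1.40 against 37.5 ± 1.75 CPM, 0.446). Near Porcn, Wdr13, Tbc1d25 and Ftsj1 stood wholly below their untreated libraries. Was (mean 0.300 against 0.0510 CPM) and Fthl17d (0.187 against 0 CPM) stood wholly above. Both treated means were below the level of 3 counts in the treated libraries (0.495 and 0.315 CPM).

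In dXist XEN cells, where treated and untreated libraries were all polyA-like, Aza left Porcn, Wls, Tcf7l1, Tcf7l2, Nkd1 and Dkk1 overlapping with their untreated libraries. Tcf7 and Lef1 stood wholly above and Axin2 wholly below, 2 and 1 of 9 genes against 20.3% and 21.8% of all genes. Axin2 was 6.06-fold lower (0.865 ± 0.194, n = 2, against 5.24 ± 3.20 CPM, n = 3; log2 change -2.59, SE 0.78), and -2.88 (SE 1.05) without the treated library that held 233 CPM of Xist. Tcf7 was 4.22-fold higher (13.8 ± 4.64 against 3.28 ± 2.89 CPM, log2 change 2.09, SE 0.88). Its log2 change was 2.89 without untreated library 2, 1.55 without untreated library 3 and 1.68 without treated library 1. Lef1 had 18 counts against 0, at least 13.1-fold higher, with 15 of the 18 in treated library 1. Axin2 thus stood wholly below its untreated libraries with Aza in both genotypes. So did 35.2% of all genes in the wild type and 21.8% in dXist, and nothing is read from it. In the wild type the lower value cannot be told apart from library type.

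Porcn had a log2 change of -0.65 (SE 0.48) with Aza in dXist cells, or -1.07 (SE 0.59) without the second treated library, beside 1.57 in the wild type; the difference between genotypes was not tested, and the wild-type value cannot be told apart from library type. Tcf7l1 stood at -0.35 (SE 0.33), beside -2.09 in the wild type, and Tcf7l2 at -0.24 (SE 0.32). Wls stood at -0.53 (SE 0.47), or -1.12 without the second treated library. Dkk1 at 0.64 (SE 1.67) ranged from -1.30 without treated library 1 to 6.27 without untreated library 3. Without treated library 2 Dkk1 stood at 1.40. Of the genes near Porcn, Wdr13, Tbc1d25 and Ftsj1 stood wholly below their untreated libraries here too.

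Of the 66 list genes 0 were called, against 0.0761% of all genes, with 15 at an unadjusted p under 0.05. DESeq2 called 7 of the 66, against 15.8% of all genes. Without the second treated library 13 were called by edgeR, in a fit that called 23.9% of all genes. Leading genes were Wnt5a (2.30 ± 0.0941 against 0.792 ± 0.148 CPM, adjusted p = 0.181), the coreceptor Lrp6 (214 ± 5.88 against 122 ± 24.2 CPM, 0.128), the R-spondin receptor Lgr4 (0.619), the destruction complex scaffold Apc (197 ± 99.0 against 99.9 ± 14.7 CPM, 0.135), the beta-catenin cofactor Pygo2 (25.4 ± 25.9 against 83.5 ± 2.79 CPM, 0.125), Sfrp4 (48 against 5 counts, 0.0754) and Myc (23.8 ± 3.68 against 66.3 ± 28.4 CPM, 0.0791).

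**Figure D4:**
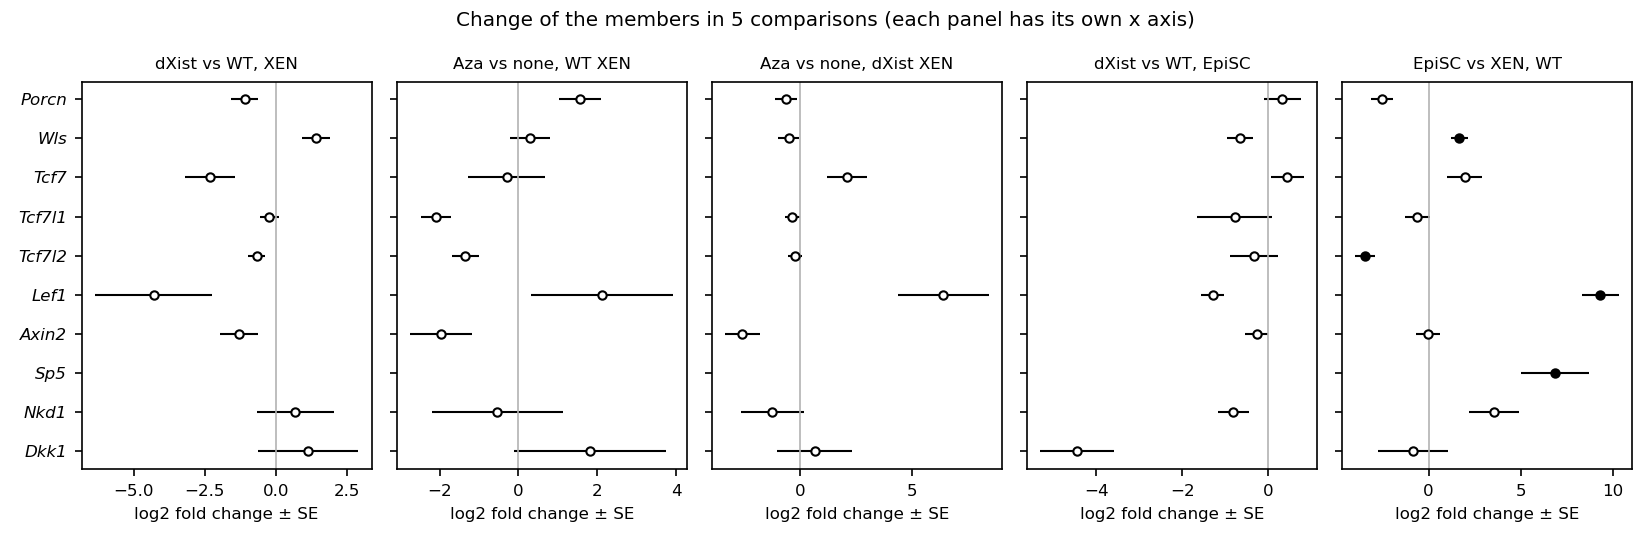
Fitted log2 change ± SE (x axis) of the 10 genes in the 5 comparisons, each panel with an x axis of its own; filled points are called in a comparison that was tested, and Sp5 appears where it passed the filter. Filled points are found in the EpiSC against XEN panel alone, for Wls, Tcf7l2, Lef1 and Sp5; Porcn and Tcf7l1 carry no call in that panel.

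The dXist comparison in EpiSC was not used to choose the genes, though they were chosen with earlier results of these data known. There Wls, Lef1, Axin2, Nkd1 and Dkk1 stood wholly below the wild type, 5 of 9 genes, and 0 wholly above, against 20.2% and 20.6% of 17132 genes. None of the 9 was called by edgeR, and 0% of all genes were. Lef1 was 2.53-fold lower (26.2 ± 0.281 against 66.1 ± 14.3 CPM, n = 2 each; log2 change -1.30, SE 0.26, unadjusted p = 0.00438, adjusted p = 0.239 by edgeR). Dkk1 had 3 counts against 73, a ratio of 25.4-fold lower with an exact 95% counting interval of 8.36 to 126 (log2 change -4.45, SE 0.85, unadjusted p = 0.00344, adjusted p = 0.228). Lef1 and Dkk1 were the 2 at an unadjusted p under 0.05.

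A term for library type, which pairs the EpiSC libraries and leaves 1 residual degree of freedom, brought both, 2 of 9 genes, past the threshold. With it edgeR put Lef1 at -1.29 on the log2 scale (SE 0.29, adjusted p = 0.000335) and Dkk1 at -4.51 (SE 0.76, adjusted p = 1.96e-07), while 11.4% of all genes were called, 4.91% higher and 6.53% lower. DESeq2 also called both (adjusted p = 0.00542 and 0.0375), and 2.87% of all genes. A fit of all 13 libraries with the type term called neither (adjusted p = 1 for both). Lef1 was lower in dXist within each library type, 26.0 against 76.2 and 26.4 against 56.0 CPM.

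On the log2 scale Nkd1 stood at -0.82 (SE 0.36, adjusted p = 0.539), Wls at -0.66 (SE 0.30, 0.547) and Axin2 at -0.28 (SE 0.27, 0.772). Sp5 did not pass the filter, with 11 counts against 26. Porcn stood at 0.32 (SE 0.43, adjusted p = 0.843), Tcf7 at 0.44 (SE 0.38, 0.739), Tcf7l1 at -0.78 (SE 0.87, 0.800) and Tcf7l2 at -0.34 (SE 0.56, 0.879), and the signs of Porcn, Tcf7l1 and Tcf7l2 turned without wild-type library 1. Fibroblast markers moved with genotype in these cultures: the 7 summed to 617 to 778 CPM in wild-type and 146 to 225 CPM in dXist EpiSC, with none at 0. Their part in the lower values was not tested, nor can fewer cells of a type be told apart from less RNA per cell. Primitive streak markers summed to 6.58 to 13.7 and 9.37 to 11.2 CPM and trophoblast markers to 3.29 to 3.82 and 8.58 to 12.6 CPM.

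Of 80 list genes tested in EpiSC, 0 were called, with 15 at an unadjusted p under 0.05. DESeq2 called 4 of the 80, against 2.87% of all genes. The leading genes were the target Sp8 (0.278 ± 0.0374 against 9.11 ± 1.35 CPM, log2 change -4.99, SE 0.40, adjusted p = 0.102 by edgeR) and the secreted Dkk3 (0.694 ± 0.365 against 12.0 ± 1.08 CPM, -4.07, SE 0.46, 0.105), followed in other classes by the receptor Fzd3 (20.1 ± 1.66 against 53.5 ± 11.02 CPM, 0.232), Pygo1 (1.91 ± 0.667 against 6.58 ± 2.10 CPM, 0.292), Wnt5a (2.31 ± 0.616 against 6.53 ± 2.62 CPM, 0.357), the receptor-degrading ligase Rnf43 (3.28 ± 0.720 against 1.24 ± 0.0483 CPM, 0.392) and Dvl2 (0.606). With the library type term 14 of 80 were called, 17.5% against 11.4% of all genes: Rnf43 rose, and 13 fell. The 13 were the targets Sp8 and Ccnd1, the antagonists Dkk3, Sostdc1, Frzb, Apcdd1, Dkk2, Trabd2b and Sfrp1, the receptors Fzd3 and Ror1, Wnt5a and Pygo1.

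Between wild-type EpiSC and XEN cells, Wls, Lef1 and Sp5 were higher and Tcf7l2 was lower in EpiSC. This comparison was not used to choose the genes but shares its XEN libraries with those that were. The wild-type XEN levels of Porcn and Tcf7l1 entered the choice, so these 2 genes are described here without a test. Of the other 8 genes 4 were called by edgeR, 3 higher and 1 lower in EpiSC, where 30.8% of 19733 genes were called, 16.8% higher and 14.1% lower. The median log2 change was 1.82 over the 8 and 0.13 over all genes. Lef1 rose 653-fold (66.1 ± 14.3 against 0.101 ± 0.143 CPM, n = 2 each; log2 change 9.33, SE 1.01, adjusted p = 0.000794). All 6 of its wild-type XEN counts were in library 1: the log2 change was 8.40 without XEN library 2, and without XEN library 1 it was fitted against 0 counts (13.92, which is no bound). Tcf7l2 fell 11.2-fold (35.04 ± 25.8 against 394 ± 32.5 CPM; -3.45, SE 0.53, adjusted p = 0.00167). Its log2 change was -4.39 without EpiSC library 1, -2.85 without EpiSC library 2 and -2.84 without the total-like libraries. These 2 factors moved in opposite directions, and both calls held without the total-like libraries (adjusted p = 0.0210 and 0.0144).

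Porcn stood 6.09-fold lower in EpiSC (3.51 ± 1.20 against 21.4 ± 1.06 CPM; log2 change -2.53, SE 0.60, or -2.96, SE 0.88, without the total-like libraries). Wls rose 3.05-fold (171 ± 37.5 against 56.1 ± 7.25 CPM; log2 change 1.67, SE 0.47, adjusted p = 0.0254 by edgeR). The call of Wls was lost without the total-like libraries (1.86, SE 0.58, adjusted p = 0.0688), without wild-type EpiSC library 1 (0.0939) and without either XEN library (0.118 and 0.0815). Sp5 rose from 0 to 26 counts, at least 9.60-fold (adjusted p = 0.0237), a call lost without the total-like libraries (0.116) and without any single library of the 4 (0.0637 to 0.0736).

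In all 5 of the 10 genes stood wholly higher and 2 wholly lower in EpiSC, against 34.7% and 31.4% of all genes. Of these Tcf7 and Nkd1 were higher without being called (log2 change 1.96, SE 0.96, adjusted p = 0.143, and 3.57, SE 1.36, adjusted p = 0.0724 by edgeR). Tcf7l1 stood at -0.62 (SE 0.68), or at 0.15 without the total-like libraries. Axin2 was nearly level (11.9 ± 0.651 against 13.01 ± 5.77 CPM; -0.04, SE 0.66, adjusted p = 0.967) and changed sign with DESeq2 size factors, and Dkk1 stood at -0.83 (SE 1.90, adjusted p = 0.754). The EpiSC libraries of Axin2 lay between its XEN libraries, while those of Lef1, Sp5 and Nkd1 stood above theirs.

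The wider pathway also differed between the cell types: 39 of 83 list genes were called (47.0%, against 30.8% of all genes), 27 higher and 12 lower in EpiSC, with a median log2 change of 0.49. Leaving out the total-like libraries left only library 1 of wild-type EpiSC. All 39 then kept their sign, but not all kept their call. Fibroblast markers summed to 617 to 778 CPM in wild-type EpiSC and 0.513 to 1.35 CPM in wild-type XEN, where Twist2 was at 0, and their part in the higher genes was not tested.

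Some ligands were higher in EpiSC and others in XEN. By class, 46.2% of ligands, 33.3% of receptors and 62.5% of the R-spondin and turnover genes were called, against 30.8% of all genes. Of 13 ligands 3 rose in EpiSC, among them Wnt8a (36.2 ± 4.99 against 0.119 ± 0.0252 CPM, log2 change 8.27, SE 0.53, adjusted p = 0.000105 by edgeR) and Wnt5b (187 against 2 counts), and 3 fell, among them Wnt7b (0.949 ± 0.361 against 88.8 ± 53.3 CPM, adjusted p = 0.000143) and Wnt11 (0.752 ± 0.573 against 43.0 ± 7.26 CPM, adjusted p = 0.00632). Of 15 receptors 5 rose and 0 fell, a share called near that of all genes. Fzd10 had 1188 counts against 0, at least 436-fold higher, and Ror2 rose 17.8-fold, Fzd2 3.90-fold and Fzd3 92.7-fold. Among R-spondins and the turnover genes they act on, 5 of 8 rose and 0 fell: Lgr4 rose 2.74-fold (199 ± 28.7 against 72.8 ± 10.4 CPM), Rspo1 had 92 counts against 0 (at least 29.9-fold), Rspo3 643 against 3 and Lgr6 135 against 3. The median of this class was 5.66, or 2.49 with genes absent in XEN set at their bound.

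Cytoplasmic genes, nuclear cofactors, antagonists and targets went both ways. Called were 21.4% of cytoplasmic genes, 70% of nuclear cofactors, 56.2% of antagonists and 57.1% of targets, against 30.8% of all genes. Of 14 cytoplasmic genes Apc rose 3.40-fold, and Dvl1 and Dvl2, which relay the receptor signal, fell 3.12-fold and 2.78-fold; Ctnnb1, which encodes beta-catenin, stood at -0.22 on the log2 scale (adjusted p = 0.657). Of 10 nuclear cofactors 3 rose and 4 fell, with the paralogs Bcl9 (6.39-fold higher) and Bcl9l (3.18-fold lower) on opposite sides, Pygo1 29.8-fold higher and the beta-catenin inhibitor Ctnnbip1 3.90-fold lower. Of 16 antagonists 7 rose and 2 fell. Sfrp2 had 432 counts against 0 (at least 149-fold higher), Sfrp1 rose 94.97-fold, and the membrane protease Trabd2b had 259 counts against 1, while Frzb fell 26.0-fold (2.23 ± 0.731 against 58.0 ± 34.4 CPM). Of 7 targets Ccnd1, encoding cyclin D1, rose 246-fold (162 ± 31.3 against 0.659 ± 0.546 CPM), Tnfrsf19 28.7-fold and Fgf8 21.2-fold, and Nrcam fell 3.13-fold. Of the genes named here for this comparison, Wnt5b, Fzd2, Fzd3, Rspo3, Lgr6, Dvl2, Bcl9l, Pygo1, Ctnnbip1, Frzb, Fgf8 and Nrcam lost their call without the total-like libraries.

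**Figure D5:**
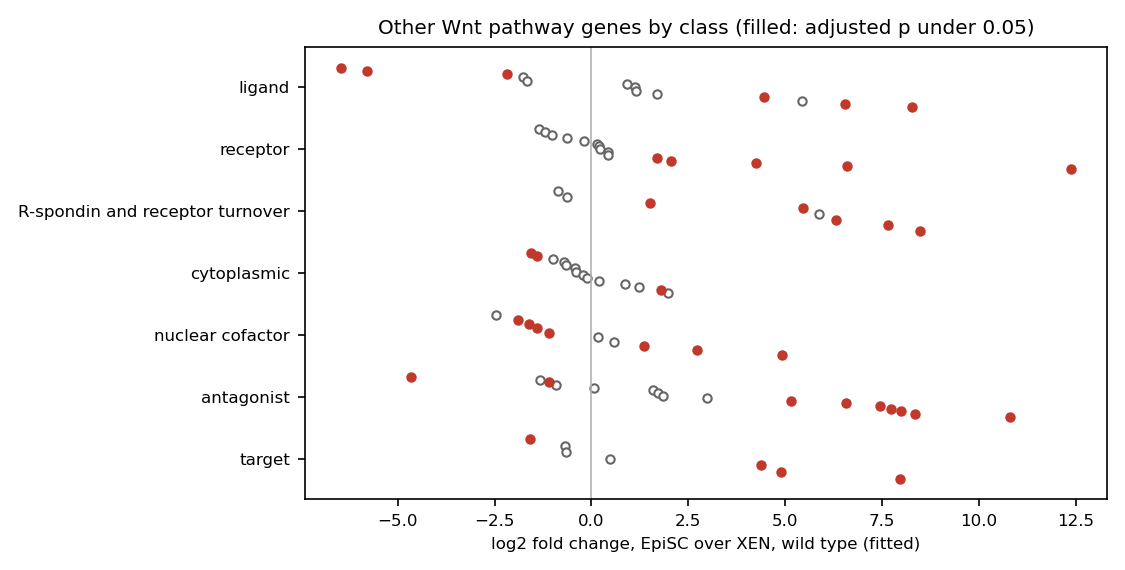
Fitted log2 change in wild-type EpiSC over XEN (x axis) of 83 other Wnt pathway genes by class (rows; points are offset vertically within a row for visibility); filled points have an adjusted p under 0.05 (edgeR). Receptors and R-spondin genes have filled points on the EpiSC side alone, and ligands and nuclear cofactors on both sides. Of receptors 33.3% were called, against 30.8% of all genes.

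The genes whose levels most resembled Porcn over the 9 XEN libraries were Hcfc1r1 (Pearson r = 0.967 over libraries), Dynlt1b (0.954), Arhgef17 (0.939), the membrane glycoprotein gene Bsg (0.920) and Dcxr (0.913), out of 10497 genes. Over the 7 polyA-like libraries these were 0.906, 0.951, 0.879, 0.842 and 0.740. Genes most like Tcf7l1 included Ccnk (0.978), Znhit6 (0.975), Ripor1 (0.975) and Pitpnb (0.965), with 0.861, 0.764, 0.718 and 0.726 over the 7. None of the 5 genes most like Porcn lies on the X. These correlations describe libraries that share depth and library type within groups, and carry no test.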

How the data were processed

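RNA was extracted with Trizol, and libraries were made with NEBNext Ultra or TruSeq stranded kits, per the labels' protocols. The sources used here do not say which library had which kit. The authors deposited raw read counts per gene, and the submitters' processing notes name the build GRCm38 (mm10) and the tools FastQC, featureCounts 2.0.1 and STAR 2.7.9a. The sources used here give neither strand nor multi-mapping settings. Symbols and positions came from GENCODE vM21, which matched 38240 of 38377 identifiers (99.6%). Promoter windows came from RefSeq (GRCm38.p6).

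The genes, lists and comparisons were chosen with earlier results of these data known. Counts were fitted in R 4.3.3 with edgeR 4.0.16 (TMM, filterByExpr, robust quasi-likelihood F test), with p-values adjusted by Benjamini-Hochberg over all tested genes and called under 0.05. Separate fits covered XEN (9 libraries, 5 residual degrees of freedom), EpiSC (4 libraries, 2) and the untreated cells of both types (9 libraries). SE is the absolute log2 change over the square root of F. CPM were scaled over all 13 libraries, and RPKM divide by summed exon length. Log2 levels add 0.5 CPM. Libraries with over 5% untailed and histone RNA were called total-like. Where a group had 0 counts a fold is a bound from 3 counts over the group; floors and 95% Clopper-Pearson intervals, given for 1 to 3 counts, cover counting error only.

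Genes named were the 10 members, in each class of the pathway list up to 4 called genes with the smallest adjusted p or, with no call, the gene with the smallest p, 5 neighbours on each side of Porcn, and the 5 genes most correlated with Porcn and Tcf7l1 among genes of at least 5 CPM on average in XEN. The result for 1 gene that met this rule is not reported here. The genes called with the library type term in EpiSC, and Ctnnb1, were named after their values were seen. Alternatives were DESeq2 1.42.0, its size factors in edgeR, no low-count filter, fits of only the compared groups, a replicate block, a library type term, and leaving out each library; leaving out the total-like libraries was added after seeing the data. Scripts were tested on simulated counts. Protein sequences of the TCF factors were not analysed here.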

Additional observations from a re-analysis of the deposited data

Results flagged for a closer look

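Wls, the Wnt carrier, stood on opposite sides of the wild type with the Xist deletion in the 2 cell types. In XEN all 3 dXist libraries stood above both wild-type libraries (log2 change 1.41, SE 0.48), and in EpiSC both dXist libraries stood below both wild-type libraries (log2 change -0.66, SE 0.30). The difference between these values was not tested. The XEN deletion is of the paternal allele and that in EpiSC is heterozygous without a parental origin given, and the fibroblast markers summed to 617 to 778 CPM in wild-type against 146 to 225 CPM in dXist EpiSC.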

How the results depend on the processing

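Counts of called genes depended strongly on the settings, and the cause was not tested. For dXist in XEN, 4 genes of all and 0 of the Wnt list were called; DESeq2 gave 506 and 3, no low-count filter 684 and 5, the 2 groups alone 1, the type term 31, and no total-like libraries 1, while leaving out 1 library gave 1 to 510 and 0 to 4, the highest of both without dXist library 3. For Aza in the wild type 107 and 0 were called; DESeq2 gave 645, no filter 747 and 1, the 2 groups alone 927 and 2, the type term 1, and leaving out 1 library 44 to 61. For Aza in dXist 14 and 0 were called; DESeq2 gave 2905 and 7, its size factors 29, no filter 2750 and 7, the 2 groups alone 0, the type term 1393 and 3, no total-like libraries 0, and leaving out 1 library 0 to 4730 and 0 to 13, the highest without treated library 2. For dXist in EpiSC 0 and 0 were called; DESeq2 gave 492 and 4, no filter 676 and 6, the 13-library type term 2, and leaving out 1 library 0 to 174 and 0 to 2. For EpiSC against XEN 6085 and 39 were called; no total-like libraries gave 3289 and 17, and leaving out 1 library 3045 to 4864 and 18 to 31. A fit of the 2 groups alone was the same as the reported one in EpiSC.

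With a replicate block the counts were 368 and 1 for dXist in XEN, where dXist library 3 has no partner and drops out, 131 and 2 for Aza in dXist XEN, and 1960 and 14 for dXist in EpiSC, where the replicate number equals the library type. Deviations of same-numbered libraries correlated at -0.14 to 0.10 within XEN, 0.14 between cell types and 0.78 in EpiSC. The numbers were not taken to pair the XEN samples. The titles of both treated dXist XEN libraries repeat those of the untreated dXist libraries with the same numbers. Whether they share a line is not stated, and these correlations cannot exclude it. Among 19 log2 changes of the 10 genes in comparisons with EpiSC libraries, Porcn and Tcf7l1 included, 190 alternatives left 166 on the same side of the threshold, with 11 lost calls, 13 gained calls and 0 called values turned. Among 27 described values, 281 of 300 alternatives stayed within the spread between libraries. Depth limits Sp5 everywhere and Lef1, Nkd1 and Dkk1 where they held few counts.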

Other observations

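Among the untreated dXist XEN libraries, library 3 stood apart for several of these genes. It held the highest Dkk1 (15.8 CPM, against 0.166 and 0.0390 in libraries 1 and 2), the lowest Tcf7 (0.285, against 3.49 and 6.05), the lowest Wls (69.6, against 180 and 202) and no count of Nkd1 (23 and 38 counts in the others). Porcn, Tcf7l2 and Axin2 in library 3 lay at 8.45, 307 and 7.41 CPM, below the wild type as in libraries 1 and 2.

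The treated dXist XEN libraries also differed from each other. Library 1 held 13.3 CPM of Xist, 14.7 of Dkk1, 70.6 of Wls and 15 counts of Lef1, and library 2 held 233 CPM of Xist, 2.20 of Dkk1, 137 of Wls and 3 counts of Lef1. Axin2 was at 0.727 and 1.002 CPM, Tcf7l1 at 109 and 97.1 CPM and Tcf7l2 at 213 and 204 CPM, near each other in both.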
